A study of Mus musculus with 6 samples.

Results

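The respiratory chain is the set of protein complexes in the inner mitochondrial membrane that carries electrons to oxygen and makes ATP. Its nuclear genes were taken here by symbol: those beginning Ndufa, Ndufb, Ndufc, Ndufs or Ndufv (complex I), Sdha to Sdhd (complex II), Uqcr (complex III), Cox4 to Cox8 (complex IV) and Atp5 (complex V). Of 18193 genes tested 94 fit these letters. They comprised 82 subunit genes, with 36 in complex I, 4 in complex II, 8 in complex III, 17 in complex IV and 17 in complex V. The remaining 12 symbols begin Ndufaf or Sdhaf and belong to assembly factors, which build a complex without staying in it, and these are described apart. Members were taken by symbol alone, but the set was chosen with earlier results of these data known.

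RNA of B cells purified from mouse spleens was hybridised to Affymetrix arrays, with 3 replicate samples in each of the groups. The labels do not say that each replicate is a separate mouse, so p-values measure the spread between these samples, part of which may be technical. All mice carried Bcl2, a gene that blocks cell death, as a transgene under the Eµ enhancer, which acts in B cells (EµBcl2). In the control group both Crebbp alleles were floxed (CBPF/F x EµBcl2), and in the other group they were deleted (CBPΔ/Δ x EµBcl2). Crebbp encodes CBP, a histone acetyltransferase. The Cre driver and the age of the mice are not given in the sources used here. Spleen cells had been frozen, thawed and depleted of CD43-bearing cells before RNA was extracted, so each array holds the RNA of a cell pool. In such bulk samples fewer cells of a type and less RNA per cell cannot be told apart. Each level below is a log2 intensity, and each difference is the mean of the deleted samples minus that of the floxed ones.

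In these complexes electrons enter from NADH at complex I or from succinate at complex II, pass through complex III and cytochrome c, and reach oxygen at complex IV. Complexes I, III and IV pump protons, and complex V, the ATP synthase, lets them flow back to make ATP. Resting B cells are known to need little of this output, while activated B cells and plasma cells are known to respire more. The transcription factors NRF1, GABP (of the ETS family), YY1 and the ERR proteins are known regulators of nuclear respiratory genes, and CBP is a coactivator for many factors, CREB among them.

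The arrays had median log2 intensities from 4.27 to 4.30. Crebbp itself stood at 51.0% to 70.6% of the floxed level by its 4 probe sets, with no overlap between the groups, and 1 of the 4 passed limma's test over all probe sets. Of the B cell markers 9 of 9 measured lay above the median of all probe set means, 4.29, and their summed intensity was 30372 to 34306 in floxed and 23279 to 25197 in deleted samples, with 9 of 9 lower on average. Plasma cell markers summed to 6222 to 7106 in floxed and 12418 to 20029 in deleted samples, with 10 of 10 higher on average. Monocyte and macrophage markers summed to 512 to 1685 and 1558 to 3803, with 12 of 12 higher on average, and heat shock genes to 11513 to 21407 and 27259 to 35342, with 8 of 8 higher on average. T cell markers summed to 176 to 274 and 246 to 258. By Xist and Y-linked transcripts floxed sample 1 and deleted samples 1 and 3 came from males, and the remaining 3 from females.

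Matches to the motifs of the known regulators were found in part of the members' promoters. RefSeq promoter windows (GRCm38.p6, 300 bases each, 250 before and 50 after a transcript start) were matched by gene ID for 78 of the 94 members, in 83 windows. The NRF1 motif (GCGCA, any base, then GCGC) was found on either strand in 24.1% of the members' windows and in 4.6% of all 32851 windows in the table. The ETS core CCGGAAG was found in 26.5% and 8.86%, and the YY1 motif AAGATGGC in 12% and 2.75%. Among windows of tested genes above the median of probe set means the shares were 10.3%, 18.2% and 4.74%. The ERR motif TNAAGGTCA was found in 3 of the members' windows (3.61%, against 1.28% of all windows). The full CREB site TGACGTCA was also found in 3 (3.61%, against 1.79%). In windows of tested genes above the median these shares were 0.695% for ERR and 3.03% for CREB. The motif letters do not overlap each other in the stretches shown. These matches are descriptions of the sequence and not measured binding sites.

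Stretches that lie before the transcript start are shown for 1 or 2 genes of complexes I to V and for Sdhaf3, to let the motifs be seen beside the values given below. Each gene shown has a match and so is not typical, since 28 of the 67 subunits with a window had an NRF1 or ETS match. In complex IV the NRF1 motif was found in 1 of 12 windows, that of Cox6a1. Motif matches are in capitals, each stretch reads 5′ to 3′ on the gene's strand, and coordinates are GRCm38.p6. Matches that reach past the start are not shown, which leaves out 1 NRF1 match of Sdhaf3 and 1 ERR match of Sdhd.
Ndufs5 (complex I, chr4:123718255-123718304, minus strand, 1 NRF1 match): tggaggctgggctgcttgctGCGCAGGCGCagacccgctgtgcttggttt
Sdha (complex II, chr13:74350241-74350358, minus strand, 3 NRF1 matches): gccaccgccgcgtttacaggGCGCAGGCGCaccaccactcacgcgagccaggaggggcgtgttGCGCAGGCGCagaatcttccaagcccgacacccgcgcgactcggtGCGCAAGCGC
Sdhd (complex II, chr9:50603869-50603948, minus strand, NRF1 then ETS): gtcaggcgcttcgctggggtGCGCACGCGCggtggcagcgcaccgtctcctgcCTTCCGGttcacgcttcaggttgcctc
Uqcr11 (complex III, chr10:80406861-80406907, minus strand, ETS): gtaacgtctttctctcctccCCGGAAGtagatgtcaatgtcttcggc
Cox6a1 (complex IV, chr5:115348959-115349140, minus strand, NRF1, NRF1, ETS): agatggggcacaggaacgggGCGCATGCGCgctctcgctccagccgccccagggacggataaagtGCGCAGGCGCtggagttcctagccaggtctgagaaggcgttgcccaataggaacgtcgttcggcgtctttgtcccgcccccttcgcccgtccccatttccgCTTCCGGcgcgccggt
Atp5h (complex V, chr11:115419931-115420080, minus strand, NRF1 then ETS): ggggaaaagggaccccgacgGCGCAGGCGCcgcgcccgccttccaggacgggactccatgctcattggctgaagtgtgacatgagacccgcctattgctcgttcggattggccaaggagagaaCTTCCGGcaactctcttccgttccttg
Sdhaf3 (assembly factor, chr6:6955871-6955917, plus strand, ETS): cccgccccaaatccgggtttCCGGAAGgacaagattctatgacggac

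The comparison asked whether respiratory chain genes differ in Bcl2-transgenic B cells when Crebbp is lost. No subunit of any of the 5 complexes passed the test, and the differences were small. Of 94 members 0 were called by limma at a Benjamini-Hochberg adjusted p under 0.05, where 0.781% of all genes tested were called (0.544% higher and 0.236% lower). At an unadjusted p under 0.05 limma had 7 members, 6 higher and 1 lower. That is 7.45%, against 14.8% of all genes (7.96% higher and 6.84% lower) and 20.6% of genes above the median of probe set means. The subunits alone had 4, all higher. The smallest adjusted p of any member was 0.101, for the assembly factor Sdhaf3.

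Differences of the subunits ran from −0.14 to 0.51, with a median of 0.045 beside a median of 0.013 over all genes. Of the 82 subunits 79 differed by less than 0.25, a change of under 1.19-fold (96.3%, against 70.8% of genes above the median of probe set means). The 95% interval of the difference lay within −0.5 to 0.5, or 1.41-fold either way, for 78 of the 82 subunits, and for 60.6% of the genes above the median. The subunits outside these intervals were Ndufa6, Cox6a2, Cox6b2 and Cox7c. The groups did not overlap in 20 of the 94 members (21.3%), 16 higher and 4 lower. Over all genes the share was 21.2%, 11.2% higher and 10% lower, and over genes above the median it was 27.3%.

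**Figure D1:**
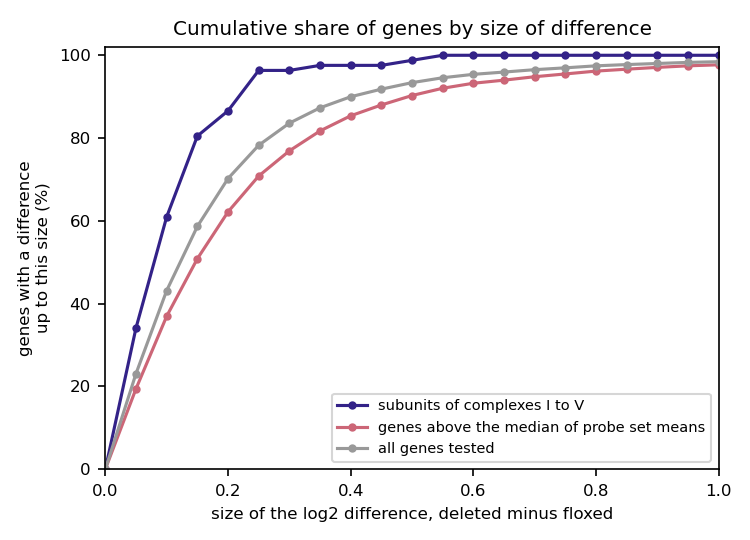
Cumulative share of genes, in percent, whose log2 difference between deleted and floxed samples is at most the size on the x axis, for the 82 subunits, genes above the median of probe set means, and all genes tested. The curve of the subunits lies above the others, reaching 61.0% at a size of 0.1, where genes above the median stand at 37.0%.

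By complex, median differences were 0.056 in complex I, −0.028 in complex II, 0.005 in complex III, 0.051 in complex IV and 0.015 in complex V. In complex I 25 of 36 differences were positive, in complex II 0 of 4, in complex III 4 of 8, in complex IV 14 of 17 and in complex V 11 of 17. Over all members 60 of 94 were positive (63.8%, against 53.4% of all genes). This count moved with single samples and probe sets. It was 47 of 94 without floxed sample 2, with a median of 0.0001, 52 without deleted sample 3, and 50 with the most variable probe set of each gene. Within the male samples 39 of 94 were positive (median −0.02) and within the female samples 64 (median 0.07), with 3 samples in each.

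**Figure D2:**
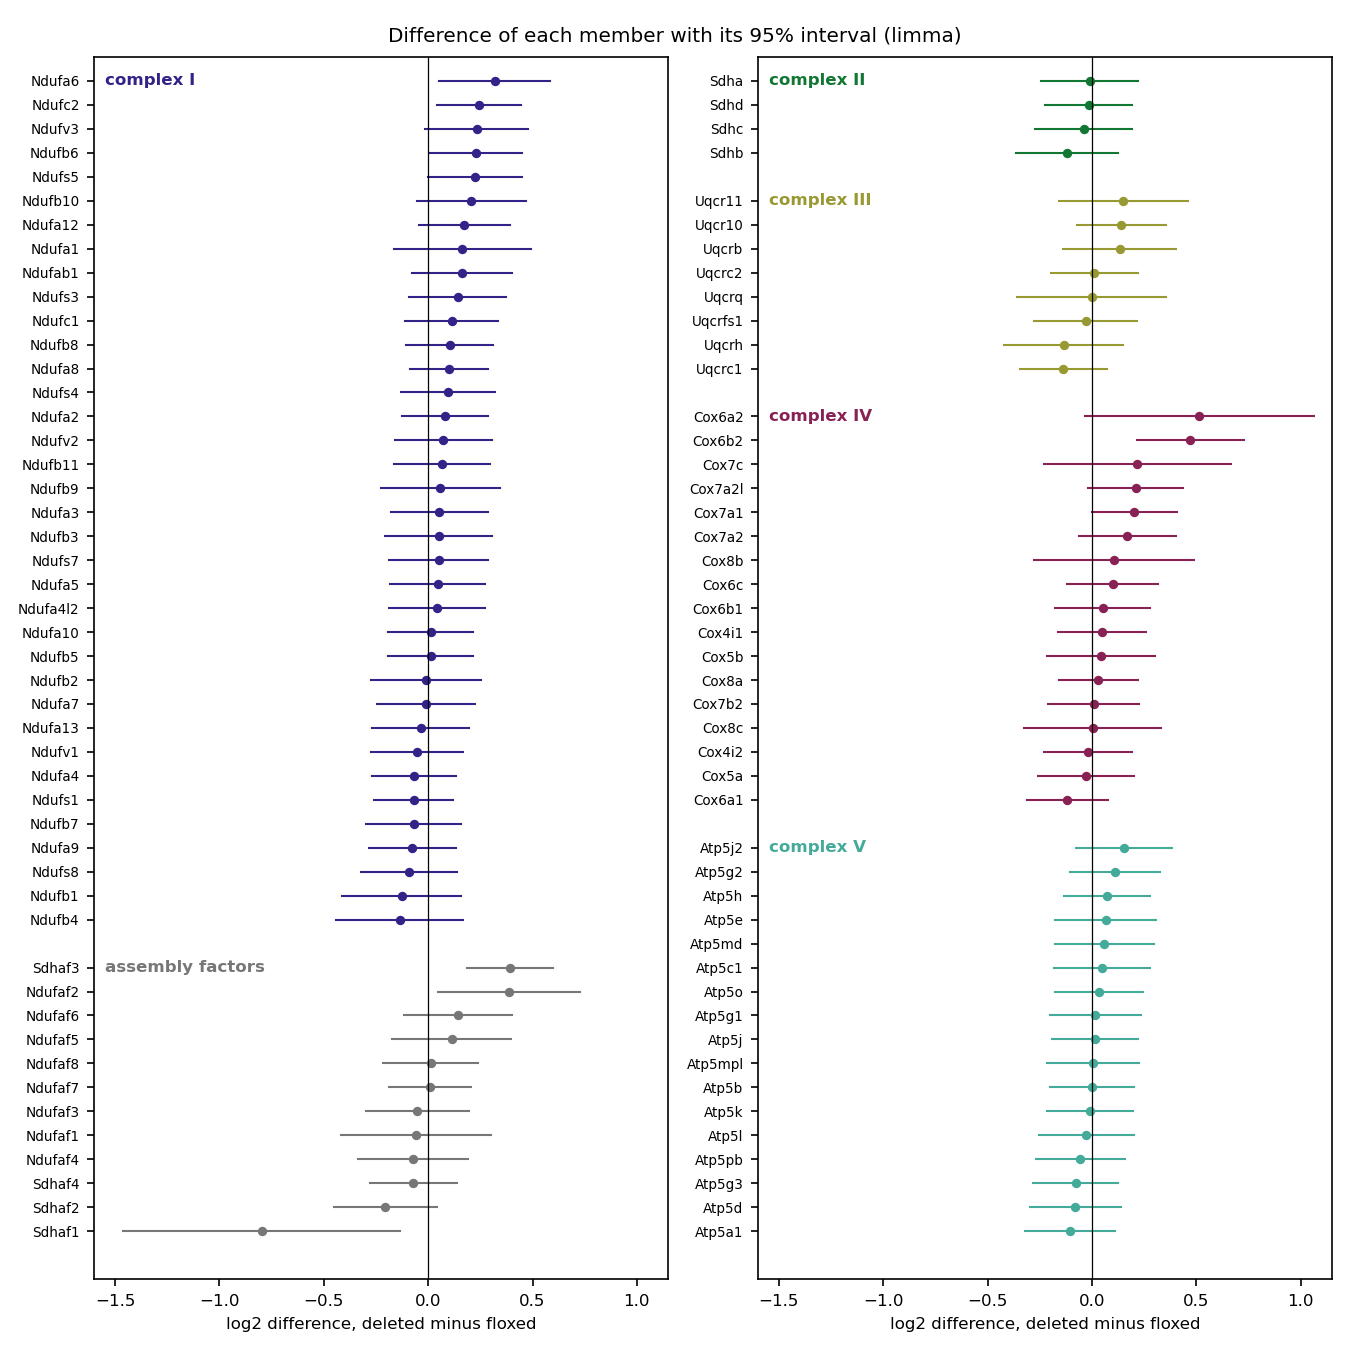
Log2 difference of each of the 94 members (point) with its 95% interval from limma (line), by complex, ordered by size. Most points lie within 0.25 of 0, and Sdhaf1 at −0.80 and Cox6a2 at 0.51 lie farthest out.

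The mean level of the members showed which samples set these signs. Relative to the floxed mean, complex I stood at 0.04, −0.08 and 0.04 in floxed samples 1, 2 and 3 and at −0.02, 0.07 and 0.14 in deleted samples 1, 2 and 3. Complex V stood at 0.06, −0.09 and 0.04 and at −0.03, 0.02 and 0.05. In both the groups overlap, with floxed sample 2 lowest. Complex IV stood at 0.03, −0.07 and 0.04 and at 0.08, 0.12 and 0.15, without overlap, but its genes that are not tissue forms did overlap, at 0.05, −0.12 and 0.07 and at 0.02, 0.10 and 0.10. Of the 79 subunits above the median of probe set means 47 (59.5%) had their lowest value in floxed sample 2, against 17.9% of all genes above the median. Deleted sample 3 held the highest value in 30 of the 79 (38.0%), against 25.6% of genes above the median. Floxed sample 2 also had the lowest macrophage sum (512) and the highest heat shock sum of the floxed samples (21407). Deleted sample 3 had the highest plasma cell (20029), macrophage (3803) and heat shock (35342) sums of all samples. The part of these cells and of stress in the levels was not tested.

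**Figure D3:**
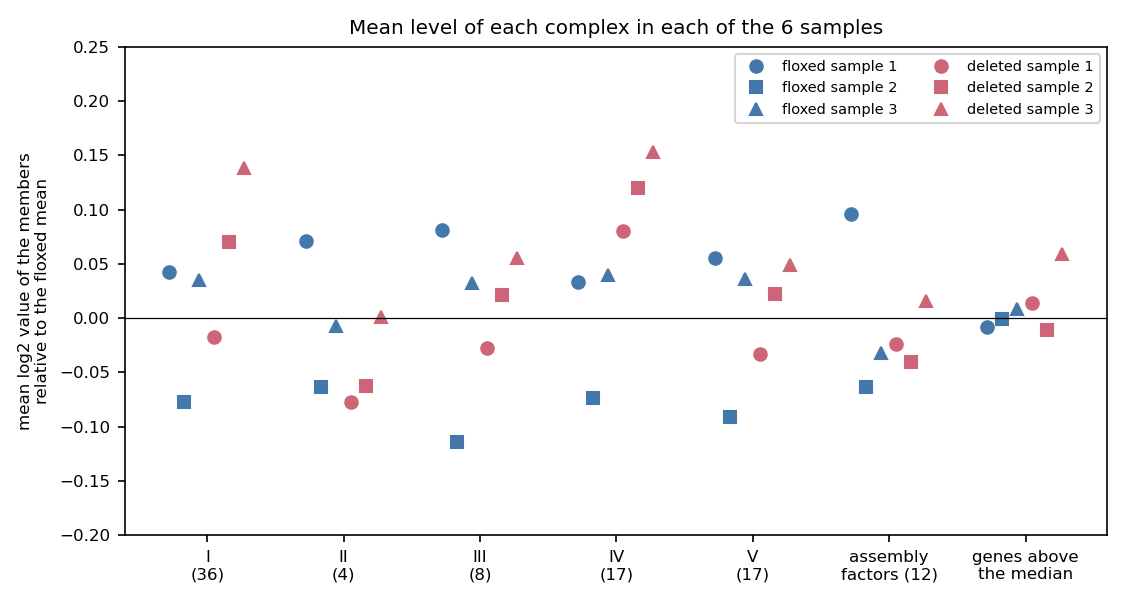
Mean log2 value of the members of each complex in each sample, relative to the mean of the floxed samples (numbers of genes in brackets, blue floxed, red deleted, 1 symbol per replicate number). Floxed sample 2 is the lowest in complexes I, III, IV and V, and the groups overlap everywhere except in complex IV.

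Complex I takes electrons from NADH and is the largest of the complexes. Its core subunits are shared with bacteria and include those that carry the flavin and the iron-sulfur clusters. Each nuclear core subunit measured had a 95% interval of the difference that includes 0. The 6 measured were Ndufs1 (−0.07), Ndufs3 (0.14), Ndufs7 (0.05), Ndufs8 (−0.09), Ndufv1 (−0.05) and Ndufv2 (0.07), with limma adjusted p-values of 0.566 and above. Groups did not overlap in Ndufs1, lower in deleted samples, and in Ndufs3, higher in them. That is 33.3% of the 6, beside 21.2% of all genes and 27.3% of genes above the median of probe set means. The accessory subunits, which surround the core, had a median difference of 0.06, and 22 of 30 were positive.

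Among the accessory subunits Ndufa6, a LYR-motif protein, had the largest difference. Its values were 10.17, 9.87 and 10.20 in floxed samples 1 to 3 and 10.34, 10.44 and 10.42 in deleted samples 1 to 3. All deleted samples lay above all floxed samples, and floxed sample 2 was the lowest of the 6. The difference was 0.32 ± 0.11 (SE, n = 3 each, limma adjusted p = 0.25), and 0.21 without floxed sample 2.

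Ndufc2, a membrane arm subunit, had values of 9.85, 9.75 and 9.81 in floxed and 10.01, 10.03 and 10.11 in deleted samples. The groups did not overlap, and the difference was 0.24 ± 0.09 (SE, limma adjusted p = 0.244). Its other probe sets above the median gave 0.21 and 0.12, with overlapping groups. Ndufb6, also of the membrane arm, had 8.97, 8.84 and 9.02 against 9.13, 9.12 and 9.26, without overlap. Its difference was 0.23 ± 0.09 (SE, limma adjusted p = 0.315), and a second probe set gave 0.09.

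Ndufs5 had 8.72, 8.71 and 8.68 in floxed and 8.81, 8.89 and 9.06 in deleted samples, a difference of 0.22 (limma adjusted p = 0.34). Its groups did not overlap, and deleted sample 3 was the highest. Ndufv3, an accessory subunit of the flavoprotein part, had a difference of 0.23 (limma adjusted p = 0.362) with overlapping groups. The lowest difference was −0.14 in Ndufb4, whose only probe set with 1 symbol was dim, at a floxed mean of 3.16 and a deleted mean of 3.03, below the median of probe set means. Ndufa4, which later work places in complex IV, had a difference of −0.07, and its hypoxia-induced paralog Ndufa4l2 one of 0.04 (limma adjusted p = 0.769 and 0.893).

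Complex II oxidises succinate and is at the same time an enzyme of the citrate cycle. None of its 4 genes passed limma's test, and none had an unadjusted p under 0.05. Over all genes these shares were 0.781% and 14.8%. The flavoprotein gene Sdha had 9.94, 9.66 and 9.79 in floxed and 9.76, 9.79 and 9.80 in deleted samples, a difference of −0.01 with a 95% interval from −0.24 to 0.22. The iron-sulfur subunit gene Sdhb had 9.75, 9.50 and 9.80 against 9.60, 9.53 and 9.56, a difference of −0.12 (limma adjusted p = 0.659). In both genes the deleted values lay inside the range of the floxed ones. The membrane anchors Sdhc and Sdhd had differences of −0.04 and −0.02, and a second probe set of each gave 0.06 and 0.07. For Sdha the other probe sets above the median gave 0.03 and −0.11.

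Complex III passes electrons from ubiquinol to cytochrome c. The Rieske iron-sulfur protein gene Uqcrfs1 differed by −0.03, and the core proteins Uqcrc1 and Uqcrc2 by −0.14 and 0.01. Uqcrc1 had 10.25, 10.08 and 10.19 in floxed and 9.99, 10.08 and 10.04 in deleted samples. The groups met at floxed sample 2 and deleted sample 2 (limma adjusted p = 0.534). Of the small subunits Uqcr10 differed by 0.14, Uqcrb by 0.13, Uqcr11 by 0.15 and Uqcrh by −0.14, with limma adjusted p-values from 0.528 to 0.662. Probe sets disagreed for Uqcr10, where the others gave −0.30 and −0.13, and for Uqcrh, where the other gave 0.05. The high value of Uqcrb came from deleted sample 2 at 12.32, where the other 5 samples lay between 11.91 and 12.04, and the difference was 0.02 without it. That of Uqcr11 came from deleted sample 3 at 9.01, beside 8.62 and 8.66 in deleted samples 1 and 2, and was 0.03 without it.

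Complex IV, cytochrome c oxidase, has several subunits that exist as a ubiquitous form and as forms of muscle, lung or testis. The 10 genes that are not such tissue forms had a median difference of 0.05, with 0 called by limma and 0 at an unadjusted p under 0.05. Over all genes 0.781% were called and 14.8% had such an unadjusted p. Cox4i1 differed by 0.05, Cox6b1 by 0.05, Cox8a by 0.03 and Cox7a2 by 0.17 (limma adjusted p = 0.479 for Cox7a2). Cox6a1 had 12.44, 12.45 and 12.49 in floxed and 12.29, 12.39 and 12.35 in deleted samples. It is the only complex IV gene in which all deleted values were the lower ones, with a difference of −0.12 (limma adjusted p = 0.563), and its second probe set gave −0.02. Cox7a2l, which helps join complexes III and IV into supercomplexes, had 11.02, 10.77 and 10.98 against 11.13, 11.13 and 11.14. Its groups did not overlap at any of its 3 probe sets, with differences of 0.21, 0.19 and 0.18, and its limma adjusted p was 0.373.

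The tissue forms held the largest differences of complex IV. Cox6b2, the testis form, had 4.24, 3.99 and 4.29 in floxed and 4.55, 4.71 and 4.67 in deleted samples. The groups did not overlap, and the difference was 0.47 ± 0.11 (SE, n = 3 each, limma adjusted p = 0.112). Its floxed mean of 4.17 lies below the median of probe set means, and no detection calls were used.

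Cox6a2, the heart and muscle form, had 5.56, 5.52 and 5.52 in floxed and 5.81, 5.68 and 6.64 in deleted samples. The groups did not overlap, but the difference of 0.51 ± 0.23 (SE, limma adjusted p = 0.365) rested on deleted sample 3 and was 0.22 without it. That sample also had the highest sums of plasma cell (20029, against 6222 to 12989 in the others), macrophage (3803, against 512 to 3139) and erythroid markers (131.8, against 21.4 to 27.3), and the part of these cells in Cox6a2 was not tested. All 3 erythroid markers measured had means below the median of probe set means. Cox7a1 differed by 0.20 at means of 2.45 and 2.65 without passing (limma adjusted p = 0.34). Cox4i2, Cox8b and Cox8c differed by −0.02, 0.10 and 0.002.

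**Figure D4:**
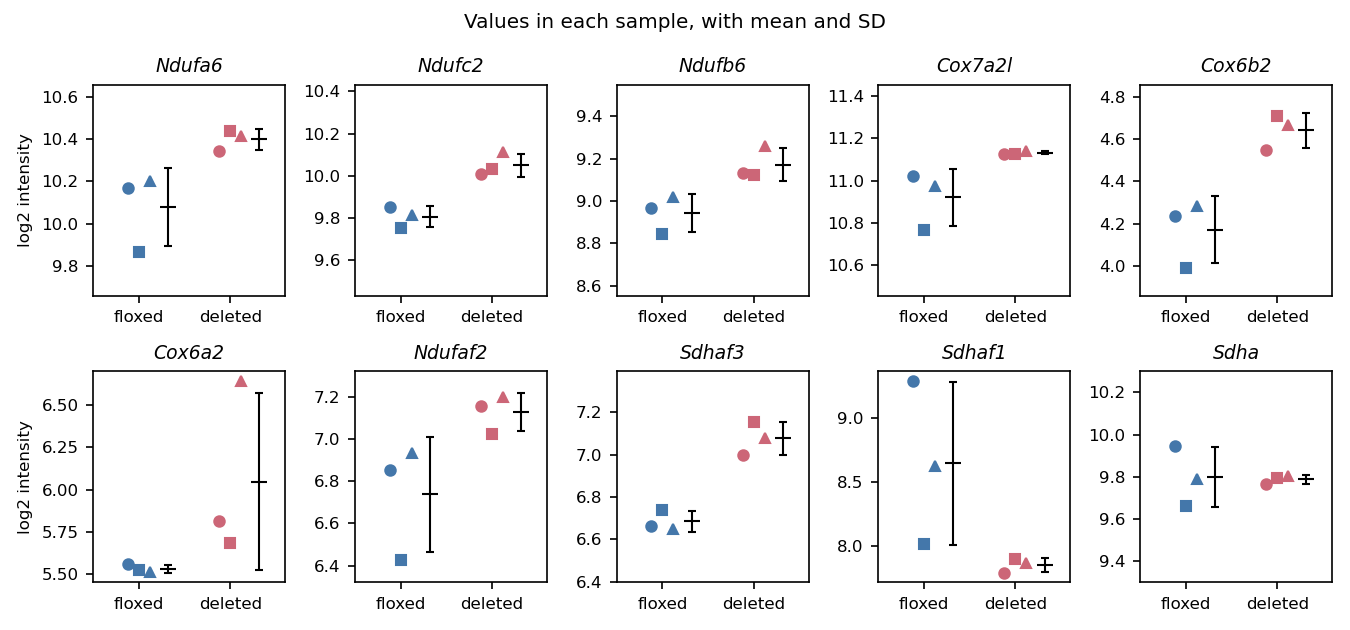
Log2 intensity of 10 members in each sample (blue floxed, red deleted, circle, square and triangle for replicates 1, 2 and 3), with the mean and SD of each group in black. Deleted sample 3 stands apart in Cox6a2 at 6.64 and floxed sample 1 in Sdhaf1 at 9.30, while Sdha is at the same level in both groups.

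Complex V makes ATP as protons turn its rotor. By the probe set chosen for each gene, the groups overlapped in all 17 of its genes, and each interval of the difference lay within −0.5 to 0.5. Other probe sets without overlap were 1 of Atp5h (0.13) and 1 of Atp5a1 (−0.11). The groups did not overlap in 21.2% of all genes and in 27.3% of genes above the median of probe set means. Of genes above that median 60.6% had an interval within −0.5 to 0.5. The genes of F1, the catalytic part of the enzyme, are Atp5a1, Atp5b, Atp5c1, Atp5d and Atp5e. They had differences of −0.10, 0.001, 0.05, −0.08 and 0.07. Atp5b, which carries the catalytic sites, had 10.98, 10.85 and 10.97 in floxed and 10.96, 10.90 and 10.95 in deleted samples. Its 95% interval ran from −0.20 to 0.20. The 3 genes Atp5g1, Atp5g2 and Atp5g3 encode the same mature c subunit of the rotor ring and differed by 0.02, 0.11 and −0.08. The peripheral stalk genes Atp5pb, Atp5h, Atp5j and Atp5o had differences from −0.06 to 0.07. The largest difference was 0.15 in Atp5j2, a membrane subunit (limma adjusted p = 0.532), where a dimmer probe set gave −0.22.

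By promoter motif, the medians of the subunits were close together. The 15 subunits with an NRF1 match had a median difference of 0.03, and the 52 without had 0.05. For the ETS core the medians were 0.02 in 17 subunits and 0.05 in 50, and for YY1 0.05 in 9 and 0.04 in 58. The difference between subunits with and without a match was not tested.

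Of the 12 assembly factors among the members 0 were called by limma, and 3 had an unadjusted p under 0.05 (25%, beside 14.8% of all genes and 20.6% of genes above the median of probe set means). Sdhaf3, which helps to mature the iron-sulfur subunit of complex II, had 6.67, 6.74 and 6.65 in floxed and 7.0, 7.16 and 7.08 in deleted samples. The difference was 0.39 ± 0.09 (SE, n = 3 each, limma adjusted p = 0.101) with no overlap. Ndufaf2, which acts in complex I assembly, had 6.85, 6.43 and 6.93 against 7.15, 7.02 and 7.20, a difference of 0.39 (limma adjusted p = 0.271) that was 0.23 without floxed sample 2. Sdhaf1, another complex II assembly factor, had 9.30, 8.02 and 8.63 in floxed and 7.79, 7.89 and 7.86 in deleted samples. Its difference of −0.80 ± 0.28 (SE, limma adjusted p = 0.25) was the largest of all members. The deleted samples were close together while the floxed ones spread widely, and without floxed sample 1 the difference was −0.47. Ndufaf2 and Sdhaf1 were singled out after their values were seen.

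In the wider list of 44 assembly factors, which includes these 12, 0 were called, and the median was −0.02. At an unadjusted p under 0.05 limma had 7 with a higher and 6 with a lower level in deleted samples. That is 29.5% in all, beside 14.8% of all genes (7.96% higher and 6.84% lower). Of the 44 genes 42 lay above the median of probe set means, and over all genes above it the share was 20.6%. Sco1, a copper chaperone of complex IV, had 5.85, 5.59 and 5.93 in floxed and 4.81, 5.21 and 5.12 in deleted samples, a difference of −0.74 (limma adjusted p = 0.071). Cox18, which inserts a complex IV subunit into the membrane, had a difference of −0.50 (limma adjusted p = 0.118). Among 14 electron carrier genes 0 were called and the median was 0.05. By limma 2 had an unadjusted p under 0.05, both lower (14.3%, beside 14.8% of all genes, 6.84% lower). Coq7 and Coq8a, which act in ubiquinone synthesis, had differences of −0.53 and −0.51 without passing (limma adjusted p = 0.19 and 0.161), and Coq9 one of 0.19. The mitochondrial genome was represented by 1 probe set named ND5, a complex I subunit, with a difference of −0.03.

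Of 17 genes of the citrate cycle and pyruvate dehydrogenase 1 rose, 0 fell and 16 did not pass limma's test, with a median of 0.04. Over all genes 0.544% were called higher and 0.236% lower. The gene that rose was also the only one whose unadjusted limma p lay below 0.05, a share of 5.88%. Such genes made up 14.8% of all genes and 20.6% of genes above the median of probe set means. Idh2, the NADP-dependent mitochondrial isocitrate dehydrogenase, went from 6.39, 6.38 and 6.63 in floxed to 7.30, 7.43 and 7.24 in deleted samples. The groups were far apart, and the rise was 0.86 ± 0.11 (SE, n = 3 each, limma adjusted p = 0.022). Its second probe set, with a mean of 4.23 below the median of probe set means, gave −0.08. The call was lost without each of floxed samples 1 and 2 and deleted samples 1, 2 and 3 (differences from 0.80 to 0.90). Dlat differed by 0.20 and Suclg1 by −0.17.

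Among 16 regulators of mitochondrial biogenesis 1 rose, 0 fell and the median was −0.09, where 0.544% of all genes were called higher and 0.236% lower. By limma's unadjusted p under 0.05, 1 was higher and 3 were lower. That is 25%, beside 14.8% of all genes and 20.6% of genes above the median of probe set means. Myc, a transcription factor that drives cell growth, rose by 1.07 ± 0.15 (SE, limma adjusted p = 0.032), from 10.28, 9.73 and 10.10 to 11.16, 11.17 and 10.98, and lost its call without floxed sample 1 or any of the deleted samples. Gabpb1, a subunit of GABP, had 6.93, 6.95 and 6.94 in floxed and 6.52, 6.46 and 6.47 in deleted samples. Its difference was −0.46 (limma adjusted p = 0.059), while a second probe set gave −0.07. Tfam, which packages and transcribes mitochondrial DNA, had 9.35, 9.62 and 9.49 against 9.15, 9.04 and 9.09, without overlap. Its difference was −0.39 (limma adjusted p = 0.142), with −0.47 at its second probe set.

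**Figure D5:**
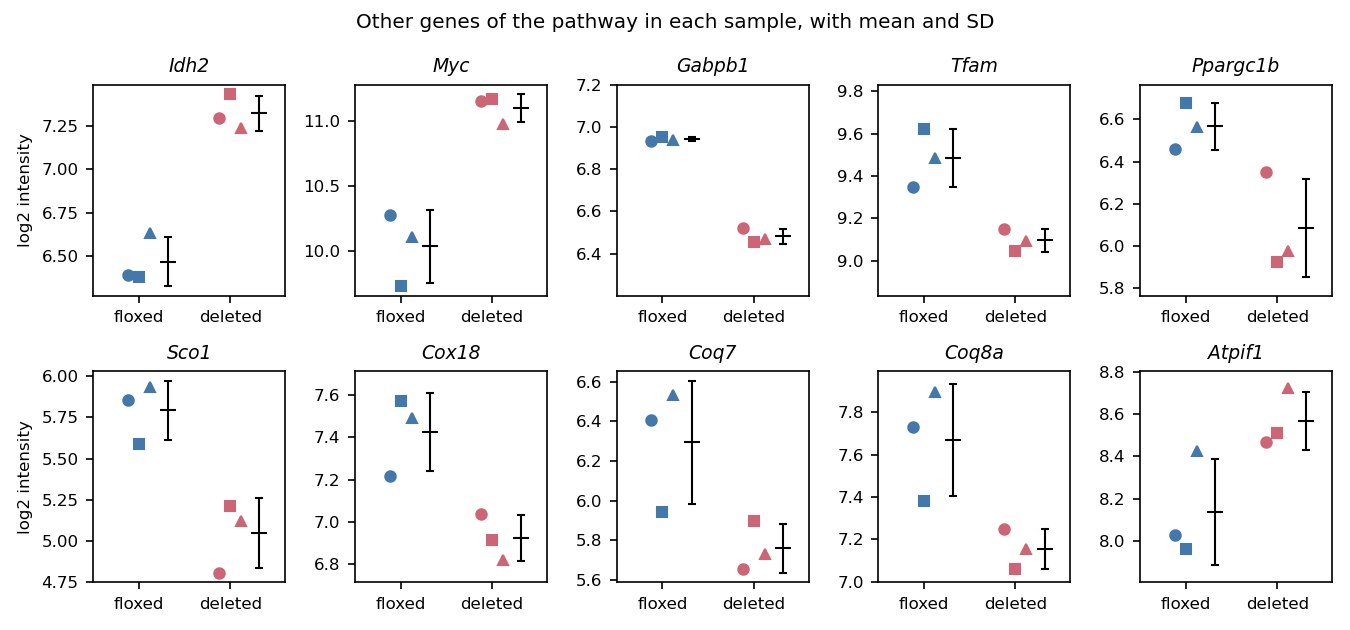
Log2 intensity of 10 genes of other mitochondrial lists in each sample (blue floxed, red deleted, symbols for replicates 1, 2 and 3), with the mean and SD of each group in black. Idh2 and Myc, which passed the test, are higher in all deleted samples, and Gabpb1, Tfam, Ppargc1b, Sco1, Cox18, Coq7 and Coq8a are lower in all of them without passing. Ppargc1b (−0.48, limma adjusted p = 0.162) lies outside the naming rule of the text. Among the 44 assembly factors 8 were higher and 9 lower in all deleted samples. These counts were 2 and 2 of 14 electron carriers, 3 and 2 of 17 citrate cycle genes, and 1 and 4 of 16 regulators. Over all genes 11.2% were higher and 10% lower.

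Of 76 mitochondrial ribosomal protein genes 0 were called, and the median was 0.03. At an unadjusted p under 0.05 limma had 6 with a higher and 2 with a lower level. That is 10.5% in all, beside 14.8% of all genes and 20.6% of genes above the median of probe set means. Mrpl24 differed by 0.37, Mrps25 by 0.34 and Mrps23 by −0.33 (limma adjusted p = 0.112, 0.155 and 0.188). Of 13 import genes 0 were called, and the median was 0.004. By limma 2 of the 13 had an unadjusted p under 0.05, both lower. That is 15.4%, beside 14.8% of all genes (6.84% lower) and 20.6% of genes above the median of probe set means. Timm10 differed by −0.46, Timm44 by −0.33 and Tomm7 by 0.17. Atpif1, the inhibitor of the ATP synthase, had 8.03, 7.96 and 8.43 in floxed and 8.47, 8.51 and 8.72 in deleted samples. The groups lay close without overlap, with a difference of 0.43 (limma adjusted p = 0.231) and −0.15 at a dimmer probe set, and Ucp3 differed by 0.16.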

How the data were processed

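The deposited table gives 1 intensity for each of 45101 probe sets and 6 arrays. The submitters' processing notes name RMA, with no version given in the sources used here. The deposited intensities reach 17022 and were read as linear and log2-transformed, with no further normalization. RMA equalises the arrays, so a change shared by most genes would not be seen.

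Probe sets were named through the platform's annotation (34958 with 1 symbol, 932 with several, 9211 with none listed), and 64 control probe sets were left out. Each of 18193 genes was represented by its single-symbol probe set with the highest mean over the 6 samples, without a filter on dim genes. Another 6 symbols of the same families lay only on probe sets shared by several genes and were not analysed here. Of 47 members with at least 2 probe sets above the median, 21 had probe sets of opposite sign.

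Tests were two-sided and had no covariates, and were run with limma (version 3.58.1, under R 4.3.3), with Benjamini-Hochberg adjustment over all genes and a threshold of 0.05. The fit was tested on simulated data. Sets of genes are described by counts and medians only. Named members were the 5 with the smallest p and the extremes of complexes I, III, IV and V, all of complex II and isoform pairs, and elsewhere the calls and the 3 smallest p of each list. The members and lists were chosen with earlier results of these data known. Arrays have no depth, and their number limits the precision. Figures were drawn with matplotlib 3.10.9.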

Additional observations from a re-analysis of the deposited data

How the results depend on the processing

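Members called by limma numbered 0 in every fit run: quantile normalization, median centring, genes above the median, the mean or the most variable of a gene's probe sets, trend and robust eBayes, the replicate block, each sample left out, sex as a term, within males and within females, a threshold of 0.10, and subunits only. The smallest adjusted p of a member in these fits was 0.074. Replicate numbers were not used as pairs in the main fit. Same-numbered deviations correlated by 0.033, 0.104 and 0.006, and differently numbered ones by −0.117 to 0.079. With so few samples these values cannot decide whether the replicates were paired. With the replicate block the smallest adjusted p of a member was 0.171, and 60 of 94 were positive. Over all genes the count of 142 became 222 with trend and robust eBayes, 37 with sex as a term, 4 within males, 0 within females and 449 at 0.10, and 0 to 226 without single samples (0 without floxed sample 1). Without floxed sample 1 limma gave 10.9% of genes an unadjusted p under 0.05, and within females 5.45%. The fits within 1 sex hold 3 samples, with 1 in an arm that is assumed to vary like the other. Positive members numbered 39 within males, 64 within females, 50 with the most variable probe sets and 47 to 67 without single samples. The median was −0.13 in complex II within males and −0.092 in complex III with the most variable probe sets. Without single samples it ran from 0.02 to 0.11 in complex I, −0.07 to −0.01 in II, −0.07 to 0.05 in III, 0.039 to 0.12 in IV and −0.03 to 0.05 in V.

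Among single members 150 of 1501 values changed sign, of which 16 were larger than their SE in either fit. With the most variable probe set these were Uqcr10 (−0.30), Atp5j2 (−0.22), Atp5g2 (−0.12), Atp5c1 (−0.24), Ndufa12 (−0.61), Ndufab1 (−0.077), Ndufb8 (−0.13), Ndufc1 (−0.026) and Ndufs4 (−0.39), and with the mean of all probe sets Uqcr10 (−0.095), Ndufab1 (−0.000875) and Ndufb8 (−0.013). The others were Cox8c without floxed sample 3 (−0.13, in a range of −0.13 to 0.080 over the samples left out), Cox7c and Ndufc1 within males (−0.0014 and −0.017) and Ndufb2 within females (0.22). Outside the members Coq9 and Ucp3 turned with the most variable probe set (−0.035 and −0.011). Crebbp passed with the mean of its probe sets (−0.70) and with trend and robust eBayes. Idh2 passed neither with the mean of its probe sets (0.39, adjusted p = 0.105) nor with sex as a term (0.90, adjusted p = 0.058), and Myc did not pass with sex as a term (1.03, adjusted p = 0.083). With the replicate block neither passed (adjusted p = 0.056 for Idh2 and 0.053 for Myc). The cause of these changes was not tested.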
